A study of Xenopus tropicalis with 12 samples.

Results

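The loci of thrb, thibz and klf9 were examined for thyroid hormone receptor (TR) occupancy in the tadpole intestine of Xenopus tropicalis. These 3 genes, of 19140 genes named in the peak lists, encode TRβ, the transcription factor TH/bZip and the Krüppel-like factor Klf9. A locus was taken as the extent that the lists give to the gene plus 50 kb on either side, and peaks sharing 1 bp or more across the 12 libraries were merged into a single region. The 3 loci held 98 of the 264370 regions of the whole series: 52 at thrb, 24 at thibz and 22 at klf9.

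Chromatin immunoprecipitation followed by sequencing (ChIP-seq) was done with a polyclonal antibody that recognises both TRα and TRβ, on premetamorphic tadpoles at about stage 54. There were 4 conditions with 3 libraries each: TRα-/- tadpoles given 10 nM T3, the active thyroid hormone, for 18 h (TRα-/- T3), TRα-/- tadpoles without T3 (TRα-/- control), wild-type tadpoles given the same T3 (wild-type T3), and wild-type tadpoles without T3 (wild-type control). Knockout and wild-type animals were born to the same parents, and all material was whole intestine. The 3 libraries of a condition are technical replicates of 1 ChIP DNA sample merged from several tadpoles, so every spread and p value given here measures technical variation and not variation between animals.

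TRs are nuclear receptors that bind thyroid hormone response elements in DNA, mostly as heterodimers with 9-cis retinoic acid receptors (RXRs). In the absence of T3 they recruit corepressor complexes to target genes, and in its presence they recruit coactivators. In frog metamorphosis thrb is itself directly induced by T3, so the receptor amplifies its own signal. The gene thibz encodes a leucine zipper factor that T3 strongly induces in tadpole tissues, and klf9 encodes a zinc finger factor, also called BTEB, that is an early T3 response gene with a known upstream enhancer in frog and mouse.

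The libraries differed in size. MACS2 called 17414, 26018 and 30916 peaks in the TRα-/- T3 libraries, 38961 to 44196 in TRα-/- control, 34933 to 44567 in wild-type T3 and 34644 to 63333 in wild-type control. A background was inferred for each library from the deposited pileup and fold enrichment, as the lowest value over its peaks. It ranged between 0.0898 and 0.664 fragments per base. Fold enrichment was read here as pileup over local background, with the same pseudocount added to both. At backgrounds this low such a value rises with the unscaled pileup, so it is not corrected for depth between libraries. No read totals were given, so sequencing depth is unknown. Peak height (pileup, the number of overlapping fragments at the summit) was not scaled between libraries. Each peak was therefore also placed within its own library by rank percentile, the percent of that library's peaks with a lower pileup, with ties split evenly and 0 where no peak was called. A missing peak means only that the caller's threshold was not reached.

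The 3 loci differed in how many peaks they held. The thibz window carried more peaks per kb than the average of the library in 12 of 12 libraries, at 1.11 to 4.91 times that average with a median of 3.52. The klf9 window lay at 0.555 to 1.85 times the average and exceeded it in 5 of 12 libraries. The thrb window, the longest at 353 kb, lay at 0.403 to 0.815 times the average and exceeded it in 0 of 12. Of the 98 regions, 66 were seen in 1 library, against 81.9% of regions genome-wide. A peak in all 3 libraries of at least 1 condition was found at 12 of the 98 regions, or 12.2%, where the share over all regions was 5.81%. These were 8 of the 24 regions at thibz, 3 of the 52 at thrb and 1 of the 22 at klf9. Only thibz thus exceeded the share over all regions.

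**Figure D1:**
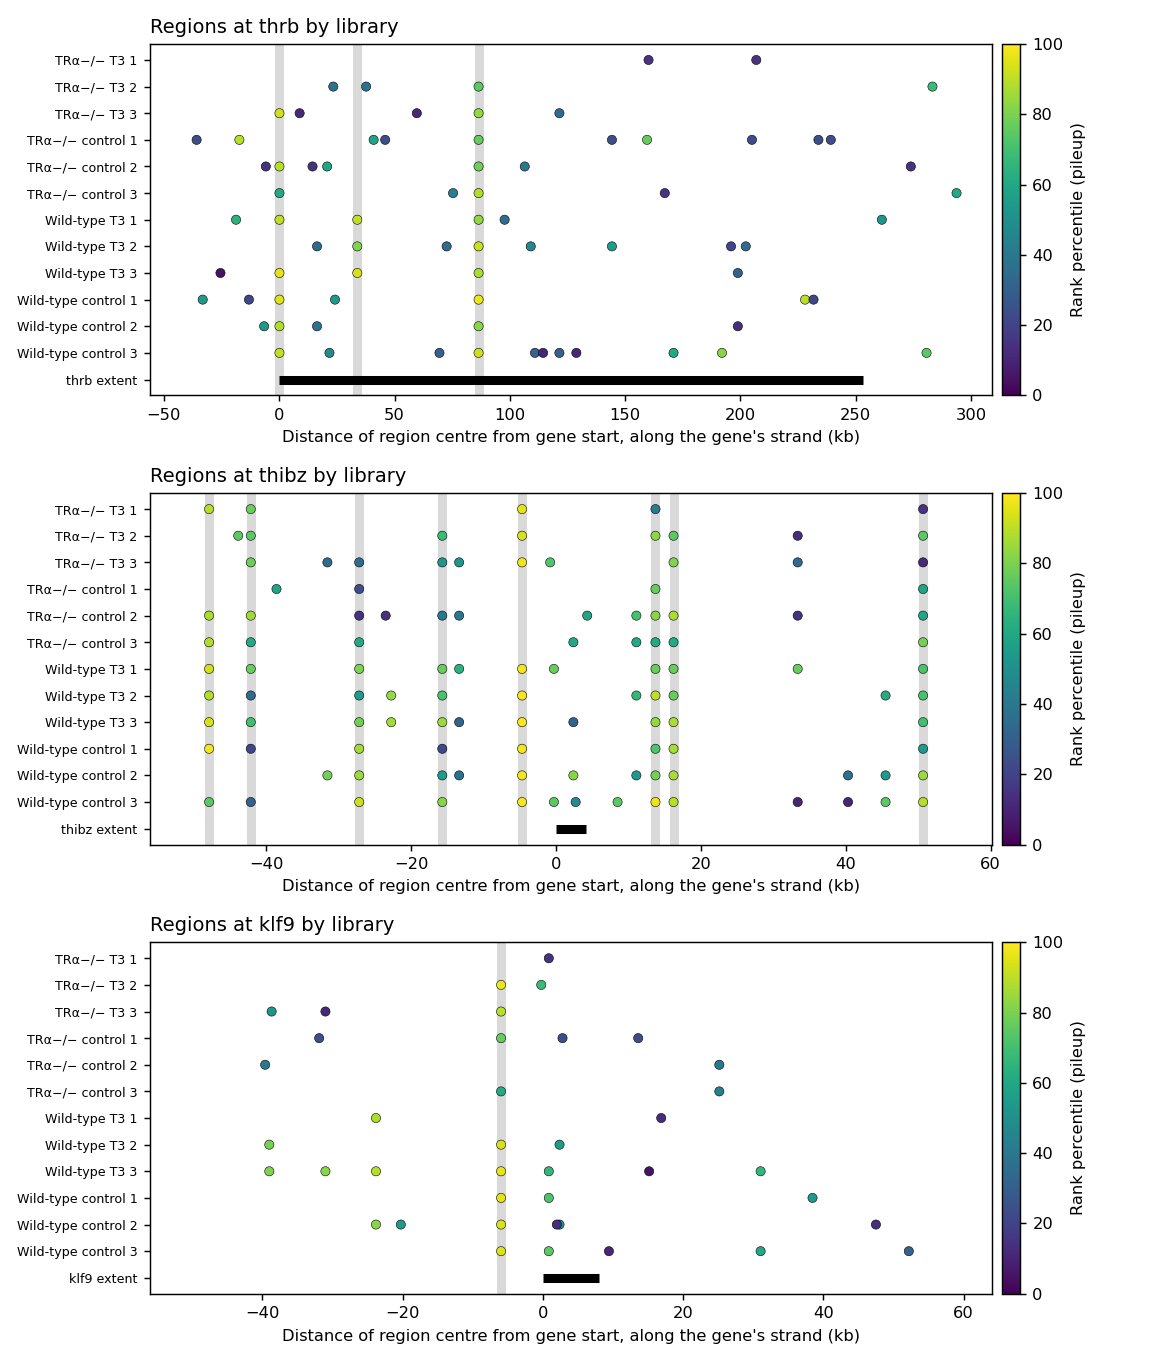
Regions with a peak near thrb, thibz and klf9 in each of the 12 libraries. The x axis is the distance of the region's centre from the annotated gene start in kb, in the direction of transcription, rows are libraries grouped by condition, colour gives the rank percentile, the black bar is the gene and grey bands mark the regions described in the text. The thibz locus shows repeated columns of peaks on both sides of the gene, whereas 45 of the 52 regions at thrb were seen in 1 library.

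At thibz the region with the highest rank lay upstream of the gene and was called in every library except those of TRα-/- control. It spans chr3:129209222-129209759 in the Xenbase 9.1 assembly (538 bp, intergenic), and its nearer end is 4399 bp from the gene, which is listed on the plus strand at chr3:129214158-129218352. The median summit was 4657 bp upstream of the annotated start. Across all 12 libraries, 731 regions of the series had a higher median rank percentile. The deposited model of thibz is a single exon of 4195 bp with a coding sequence of 1008 bp. Distances, and the terms intergenic and upstream, refer to that model. Its start may not be the transcription start, and this was not tested.

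The pileup at this upstream region was 19, 17 and 33 fragments in TRα-/- T3, and no peak was called in any of the 3 TRα-/- control libraries. In wild-type tadpoles it was 38, 65 and 90 with T3 and 22, 33 and 52 in control. The region ranked near the top of every library in which it was called, in all 3 libraries of 3 conditions. It was chosen for the highest median rank at the locus, so its high rank comes in part from that choice. Its fold enrichment over the local background, as deposited, was 13.4, 11.6 and 16.8 in TRα-/- T3. The enrichment was 19.3, 23.4 and 25.2 in wild-type T3, against 16.1, 15.7 and 21.5 in wild-type control. On this scale the TRα-/- T3 and wild-type T3 values do not overlap, while those of wild-type T3 and wild-type control do. The scale rises with unscaled pileup, so the gap between genotypes is not corrected for depth.

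The rank percentile gave the following comparisons. In TRα-/- tadpoles it averaged 95.7 ± 1.84 with T3 and 0 ± 0 in control (SD, n = 3 each), and the difference of 95.7 had an exact permutation p of 0.1, the smallest that 3 against 3 libraries can give, or 0.3 adjusted over 12 tests. In wild-type tadpoles it averaged 98.4 ± 0.449 with T3 and 98.3 ± 0.437 in control (SD, n = 3 each), a difference of 0.12 within the spread of the libraries (exact permutation p = 0.8). TRα-/- control lay below wild-type control in all 3 libraries, at 0 ± 0 against 98.3 ± 0.437 (exact permutation p = 0.1, adjusted 0.3, n = 3 each). With T3, TRα-/- at 95.7 ± 1.84 was below wild type at 98.4 ± 0.449 by 2.78 percentile points, again without overlap (exact permutation p = 0.1, adjusted 0.3, n = 3 each). No comparison in this design could pass an adjusted threshold of 0.05.

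The TRα-/- control libraries, in which this region was not called, had 4, 15 and 8 peaks in the thibz window, and the 4 of replicate 1 were the fewest of the 12 libraries. The peak nearest to the upstream region lay 17107, 8320 and 6685 bp away in TRα-/- control replicates 1, 2 and 3. Of the peaks of these libraries on chromosome 3, which holds thibz, 98.7%, 95.6% and 95.7% had a pileup below 17, the lowest value the region reached elsewhere. The background inferred for these libraries was 0.118, 0.26 and 0.252 fragments per base, and whether depth or background bears on the missing calls was not tested.

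The summits of this region were tightly placed. Over the 9 libraries with a peak they fell within 49 bp, between 4629 and 4678 bp upstream of the gene start. Only 1.73% of the 1796 regions called in the same number of libraries had a narrower range, and their median range was 462 bp. Position was not used to choose the region, but rank by pileup was. Comparison regions, here and below, were matched only on the number of libraries and not on pileup or width.

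Another 7 regions at thibz had a peak in all 3 libraries of at least 1 condition. Their median percentiles were 53.4 to 88.1, below the lead region by the way it was chosen. Upstream of the gene they lay at distances of 47.9, 42.1, 27.1 and 15.7 kb, and downstream of the start at 13.7, 16.2 and 50.7 kb, all more than 5 kb from the gene. The regions at 13.7 and 16.2 kb fall within LOC100486093, an uncharacterised neighbouring gene. The region at 50.7 kb was called in 12 of 12 libraries and was the only one of the 98 regions with this record, which 1.49% of regions genome-wide shared.

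These 7 regions differed in shape from the upstream lead region. That at 50.7 kb was 2338 bp wide with summits spread over 1529 bp. That at 27.1 kb was 3879 bp wide with summits spread over 3829 bp, and 99.9% of regions called in as many libraries had a narrower summit range. The region 47.9 kb upstream, chr3:129166137-129166446, was an exception. It was 310 bp wide, its summits fell within 99 bp over 8 libraries, and 6.15% of comparable regions were narrower.

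This site begins just beyond the annotated start of epor, which is listed on the minus strand at chr3:129146725-129166113. No value here assigns the site to thibz or to epor. Its pileup was 11 in TRα-/- T3 replicate 1 and no peak was called in replicates 2 and 3. In TRα-/- control it was 10 in both replicates 2 and 3, with no peak in replicate 1. In wild-type T3 it was 17, 21 and 31, against 21 and 8 in wild-type control replicates 1 and 3. Only wild-type T3 had a call in each library, and every other condition had at least 1 library with a call.

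The other 16 regions at thibz reached 5 libraries at most and a pileup of 19 at most. Within the gene itself, no region was called in all 3 libraries of any condition. The number of peaks in the window was 7, 8 and 11 in TRα-/- T3 and 4, 15 and 8 in TRα-/- control, against 13, 11 and 12 in wild-type T3 and 9, 15 and 17 in wild-type control. The ranges overlap in both T3 comparisons. With T3, every TRα-/- library had at most 11 peaks and every wild-type library at least 11, and the difference of -3.33 peaks had an exact permutation p of 0.2 (adjusted 0.6). Relative to the average of each library, which was lower in TRα-/- T3, the density in the window was 4.91, 3.76 and 4.35 times in TRα-/- T3, against 4.54, 3.29 and 3.29 times in wild-type T3, and these values overlap. The direction of the T3 difference was not stable to the stringency of the peak calls in either genotype.

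**Figure D2:**
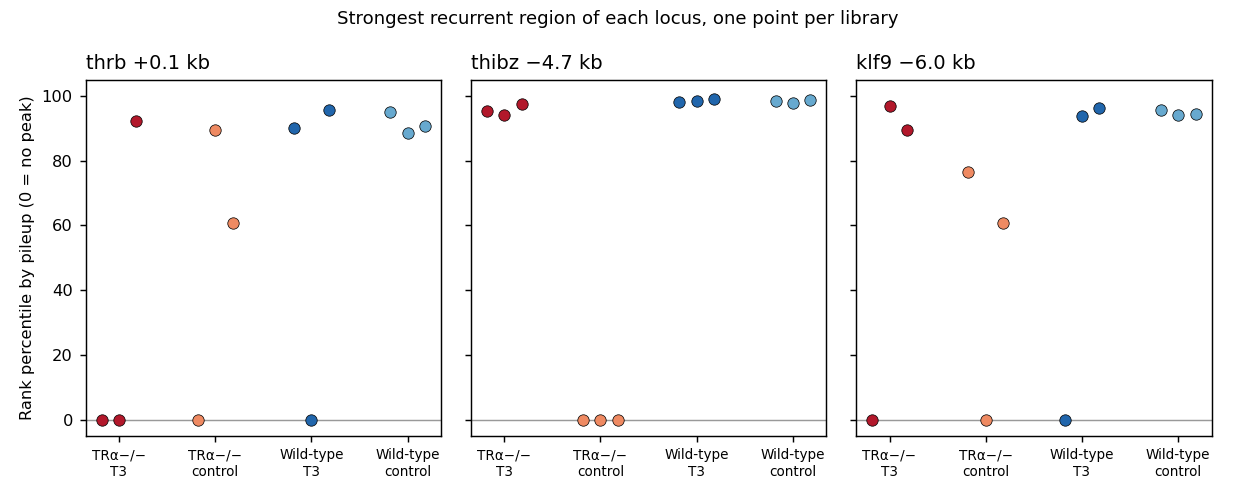
Rank percentile by pileup (y axis, percent, 0 where no peak was called) of the lead region of thrb, thibz and klf9 in TRα-/- T3, TRα-/- control, wild-type T3 and wild-type control. Each point is a library, in the order of replicates 1 to 3, and no mean is drawn. The thibz region is at 0 in all 3 TRα-/- control libraries and averages 95.7 or more in the other conditions, whereas the thrb and klf9 regions have missing calls scattered over 3 conditions.

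At klf9 the lead region was also upstream. The gene is on the minus strand at chr1:117599269-117607312 (8044 bp, 2 exons), and the region spans chr1:117613045-117613508 (464 bp, intergenic). Its median summit was 5878 bp upstream of the start and its nearer end was 5733 bp from the gene. It was called in 9 libraries, and 2618 regions of the series had a higher median rank.

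The pileup was 26 and 13 in TRα-/- T3 replicates 2 and 3 and 4 and 5 in TRα-/- control replicates 1 and 3, with no peak in the remaining library of each. It was 31 and 43 in wild-type T3 replicates 2 and 3, with no peak in replicate 1, and 12, 18 and 22 in wild-type control. Wild-type control was the only condition with a peak in every library, and no condition lacked the peak in all 3.

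The fold enrichment at the upstream klf9 region was 15.0 and 8.88 in TRα-/- T3, against 3.797 and 4.16 in TRα-/- control. It was 13.8 and 15.2 in wild-type T3, against 9.95, 10.97 and 12.9 in wild-type control. Among the libraries with a peak, both TRα-/- control values lay below every value of the other conditions. Both wild-type T3 values lay above every wild-type control value. Since the scale rises with unscaled pileup, neither order is corrected for depth. In rank percentile the same peaks stood at 93.8 and 96.2 in wild-type T3, against 95.7, 94.0 and 94.3 in wild-type control. These overlap, so the wild-type order was not kept by rank. The TRα-/- control peaks, at 76.4 and 60.8, remained below those of every other condition, with 97.0 and 89.4 in TRα-/- T3. A library without a peak has no enrichment value, so these orders leave out 1 library in each of 3 conditions.

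With missing calls entered as 0, the rank percentile at klf9 averaged 62.1 ± 53.9 in TRα-/- T3 and 45.7 ± 40.4 in TRα-/- control (SD, n = 3 each), an exact permutation p of 0.6. It averaged 63.3 ± 54.9 in wild-type T3 and 94.7 ± 0.903 in wild-type control (n = 3 each), also an exact permutation p of 0.6. TRα-/- control lay below wild-type control in every library, with a difference of -48.9 (exact permutation p = 0.1, adjusted 0.3). Between TRα-/- T3 and wild-type T3 the difference was -1.22 with an exact permutation p of 1. The direction of the T3 difference in wild-type tadpoles rested on the libraries numbered 1, since without them the difference was 0.83, and that in TRα-/- tadpoles turned without the libraries numbered 2, to -23.9.

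The missing peaks at klf9 fell in libraries of differing size. Wild-type T3 replicate 1 had 34933 peaks, TRα-/- T3 replicate 1 had 17414, the fewest of all, and TRα-/- control replicate 2 had 38961. The nearest peaks were 17461, 6316 and 30734 bp from the region in these 3 libraries. Whether their size or background bears on the missing calls was not tested.

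As at thibz, the summits at klf9 were close together. They fell within 84 bp over 9 libraries, between 5870 and 5954 bp upstream of the gene start, and 3.67% of the regions called in 9 libraries had a narrower range. The other 21 regions at klf9 reached 4 libraries at most. One of them lay over the first exon and coding sequence, 0.8 kb downstream of the start, and was called in 4 libraries with a pileup of at most 10. A region 23.8 kb upstream had a pileup of up to 22 in 3 libraries, with summits within 21 bp. These 2 regions were chosen for description after their values were seen.

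The number of peaks in the klf9 window was 1, 2 and 3 in TRα-/- T3 and 4, 2 and 2 in TRα-/- control, against 2, 3 and 7 in wild-type T3 and 3, 6 and 5 in wild-type control. The values overlap in all 4 comparisons. Exact permutation p values ranged from 0.2 to 0.9 over the 4 comparisons, and all adjusted values were at or above 0.6.

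**Figure D3:**
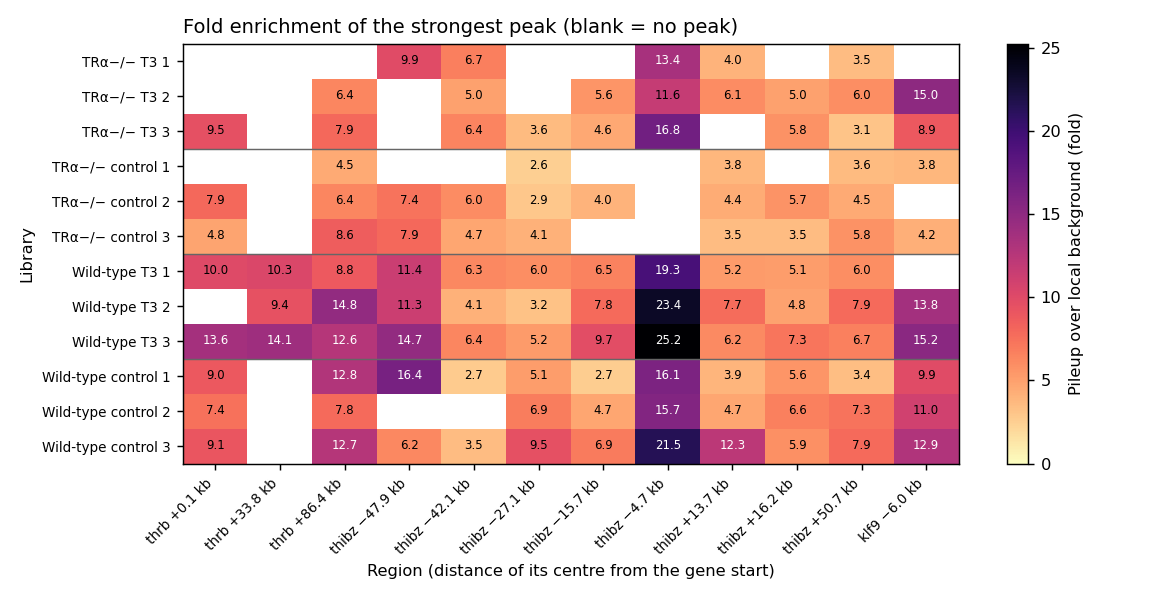
Fold enrichment over local background, as deposited (colour and printed value), of the strongest peak at the regions of thrb, thibz and klf9 described in the text (columns) in each library (rows, by condition in the order TRα-/- T3, TRα-/- control, wild-type T3 and wild-type control). Blank cells are libraries without a peak, and the values are not corrected for depth between libraries. The region 4.7 kb upstream of thibz reaches 25.2 in wild-type T3, the highest value shown, and is blank in all 3 TRα-/- control libraries.

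At thrb the region with the highest median rank covered the annotated start of the gene. The gene is on the plus strand at chr6:77217559-77470681 (253123 bp, with 10 listed exons), and the region spans chr6:77217418-77217880 (463 bp), which includes the first listed exon at chr6:77217559-77217638 and no coding sequence. The summits lay between 77217532 and 77217647. The well-studied T3 response element of Xenopus thrb is known to lie in its promoter region, and no sequence was read here to place it.

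The pileup at the thrb start was 16 in TRα-/- T3 replicate 3 and 11 and 5 in TRα-/- control replicates 2 and 3, with no peak in the remaining TRα-/- libraries. It was 14 and 40 in wild-type T3 replicates 1 and 3, with no peak in replicate 2, and 11, 12 and 16 in wild-type control. Calls therefore numbered 1 in TRα-/- T3, 2 in TRα-/- control, 2 in wild-type T3 and 3 in wild-type control, and every condition had at least 1. The fold enrichment was 9.48 in TRα-/- T3, against 7.89 and 4.75 in TRα-/- control, and 10.0 and 13.6 in wild-type T3, against 8.96, 7.43 and 9.102 in wild-type control. Both wild-type T3 peaks lay above all 3 wild-type control peaks on this scale, but the wild-type T3 replicate 2 library had none. The scale rises with unscaled pileup, so this order is not corrected for depth. The rank percentiles of the same peaks overlap, at 90.0 and 95.7 in wild-type T3, against 95.0, 88.4 and 90.8 in wild-type control.

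The rank percentile at the thrb start averaged 30.8 ± 53.3 in TRα-/- T3 and 50.1 ± 45.7 in TRα-/- control (SD, n = 3 each, exact permutation p = 1). It averaged 61.9 ± 53.7 in wild-type T3 and 91.4 ± 3.34 in wild-type control (n = 3 each, exact permutation p = 0.7). The largest difference at this region was that of TRα-/- control with wild-type control, -41.3, with an exact permutation p of 0.2 and an adjusted p of 0.48. TRα-/- T3 differed from wild-type T3 by -31.1 (exact permutation p = 0.7). None of these differences exceeded the spread of the libraries, and the T3 difference in TRα-/- tadpoles, -19.3, became 15.8 without the libraries numbered 2.

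Further regions lay within thrb, between the exons listed at chr6:77239324-77239392 and chr6:77319732-77319775, in a list that may be incomplete. One of them, chr6:77251220-77251578 (359 bp), 33.8 kb downstream of the start, was called in all 3 wild-type T3 libraries and in none of the other 9. Its pileup was 14, 15 and 32 and its fold enrichment 10.3, 9.38 and 14.1 in wild-type T3. In rank these peaks stood at the 90.0, 81.1 and 93.7 percentile of their libraries. The summits fell within 27 bp, and 4.13% of the regions called in 3 libraries had a narrower range.

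The other, chr6:77303571-77304427 (857 bp), lay 86.4 kb downstream of the start and was called in 11 of 12 libraries. Its pileup was 7 and 10 in TRα-/- T3 replicates 2 and 3, with no peak in replicate 1, and 4, 7 and 10 in TRα-/- control. It was 10, 26 and 20 in wild-type T3 and 15, 9 and 18 in wild-type control. Values of the conditions overlap in each comparison apart from TRα-/- T3 with wild-type T3, where the highest TRα-/- value equals the lowest wild-type value. Fold enrichment was 6.37 and 7.95 in the 2 TRα-/- T3 libraries with a peak, against 8.79, 14.8 and 12.6 in wild-type T3. These do not overlap on this scale, which is not corrected for depth. The rank percentiles of the same peaks do overlap, at 74.9 and 83.9 in TRα-/- T3, against 83.4, 91.7 and 87.1 in wild-type T3.

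The 86.4 kb region had a sharp left edge rather than a sharp summit, and its right edges spread over 305 bp. Over 11 libraries its summits spread over 432 bp, near the median of 452 bp for regions called in as many libraries, whereas its left edges fell within 11 bp, a range that 5.58% of those regions undercut. Summit and edge ranges were computed for every region, and the left edge was picked out from these. At the other regions described, the same share for left edges ran from 3.81%, 47.9 kb upstream of thibz, to 99.9%. A sharp left edge was thus not particular to the 86.4 kb region. The remaining 49 regions of the thrb window were each called in at most 2 libraries with a pileup of at most 10. The windows held 2, 4 and 5 peaks in TRα-/- T3 and 10, 7 and 5 in TRα-/- control, against 6, 8 and 5 in wild-type T3 and 7, 5 and 11 in wild-type control. No comparison of these numbers passed (exact permutation p = 0.2 to 1 over 4 comparisons, adjusted 0.6 or above).

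**Figure D4:**
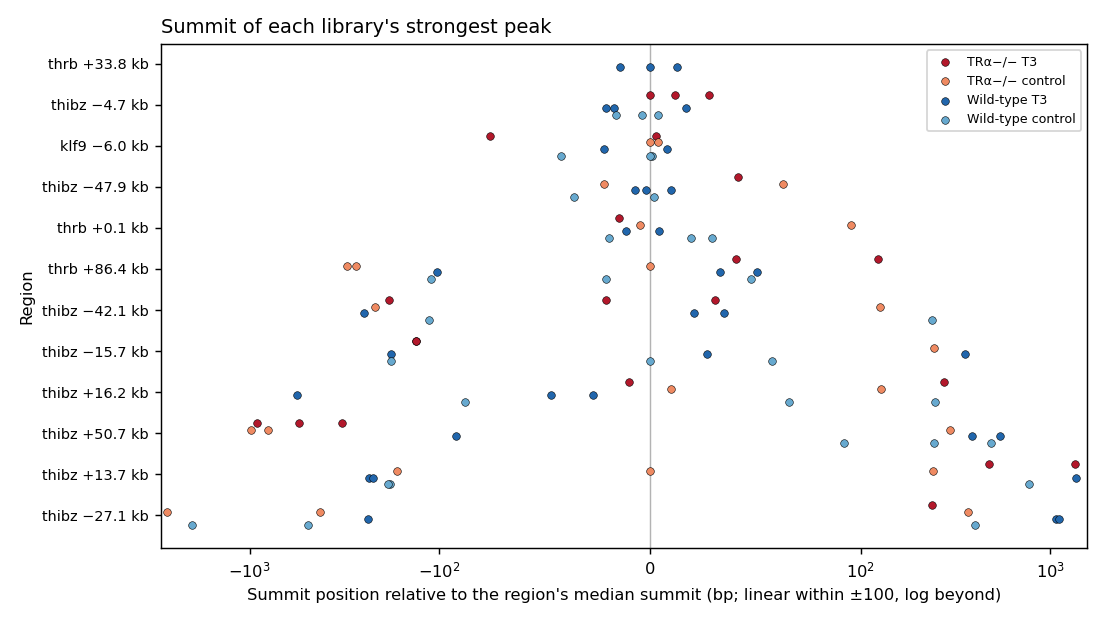
Position of each peak summit relative to the median summit of its region (x axis, bp, linear within 100 bp and logarithmic beyond), for the regions of thrb, thibz and klf9 called in all 3 libraries of at least 1 condition (rows). Each point is the strongest peak of a library, coloured by condition. The lead regions of thibz and klf9 have summits within 49 and 84 bp, the thrb start within 115 bp, and the region 27.1 kb upstream of thibz spreads over 3829 bp.

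A region was called as different when all 3 libraries of one condition and no library of the other had a peak. For wild-type T3 against wild-type control, 1 of the 98 regions was called in T3 alone, that 33.8 kb into thrb, where 0.158% of all regions were, and 0 were called in control alone, where 0.0488% were. For TRα-/- T3 against TRα-/- control, 1 region was called in T3 alone, that upstream of thibz, where 0.0363% of all regions were, and 0 in control alone, where 0.125% were. For TRα-/- control against wild-type control, 0 were called in TRα-/- alone (0.0401% of all regions) and 1 in wild type alone (0.206%), the same thibz region. For TRα-/- T3 against wild-type T3, 0 were called in TRα-/- alone (0.00908%) and 1 in wild type alone (0.57%), the thrb region at 33.8 kb.

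The 4 comparisons share libraries in pairs, so these 4 calls come from 2 regions. The peaks behind them had deposited −log10 q values of 13.2 or more. A stricter threshold of 5 and a limit of 17414 peaks per library could therefore not remove a call. Both were applied to these calls only after seeing the data. In each comparison the members gave at most 1 call in a direction.

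Regions called in all 3 libraries numbered 3 in TRα-/- T3 and 4 in TRα-/- control over the 3 loci, where 2.31% and 2.8% of all regions were so called. There were 10 in wild-type T3 and 9 in wild-type control, where 4.85% and 3.38% were. Most lay at thibz, with 3 in TRα-/- T3, 3 in TRα-/- control, 8 in wild-type T3 and 6 in wild-type control. At thrb the numbers were 0, 1, 2 and 2 in the same order of conditions, and at klf9 they were 0, 0, 0 and 1. The genome-wide shares were also lower in the TRα-/- conditions, and the sizes of the drops were not compared. Without the libraries numbered 1, when 2 libraries sufficed, there were 8 in TRα-/- T3, 10 in TRα-/- control, 13 in wild-type T3 and 11 in wild-type control, and with a −log10 q of at least 5 there were 0 in TRα-/- control. The numbers also rest on joining by 1 bp, which can link peaks through those of other libraries. In the region 27.1 kb upstream of thibz, the strongest peaks of the 3 TRα-/- control libraries did not overlap one another. The wild-type conditions were also linked in this way there. The strongest peak of wild-type T3 replicate 2 overlapped neither that of replicate 1 nor that of replicate 3. Those of wild-type control replicates 2 and 3 did not overlap each other. When an overlap of 50% of both peaks was required there were 2 in TRα-/- T3, 2 in TRα-/- control, 8 in wild-type T3 and 5 in wild-type control.

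When a gene was counted as bound if a region called in all 3 libraries of a condition lay in its extent or within 5 kb, the 3 genes gave different records. thibz was bound in TRα-/- T3, wild-type T3 and wild-type control through its upstream region, and thrb in TRα-/- control, wild-type T3 and wild-type control. klf9 was bound in no condition. Its lead region was called in all 3 libraries of wild-type control alone and lies 5733 bp from the gene, outside the 5 kb. Genome-wide, 11.9% of 18984 genes were bound by this count in TRα-/- T3, 14.2% in TRα-/- control, 21.4% in wild-type T3 and 16.4% in wild-type control.

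Of a list of 19 genes of T3 signalling (receptor partners, coregulators, deiodinases, transporters and known response genes), 15 were named in the lists and the others, thra among them, were not analysed here. By the same 5 kb count, ncoa3, which encodes a nuclear receptor coactivator, was bound in all 4 conditions, with 1 region in TRα-/- T3, 1 in TRα-/- control, 2 in wild-type T3 and 1 in wild-type control.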

How the data were processed

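The authors immunoprecipitated intestinal chromatin with a TR antibody and aligned reads with Bowtie2 (2.3.4.1) to the Xenbase 9.1 assembly of Xenopus tropicalis. They called peaks in each library by itself with MACS2 (2.1.1.20160309, q of 0.05, no control library). The 12 deposited lists hold, for each peak, the pileup signal at the summit (unscaled fragment coverage), the fold enrichment over local background, and the −log10 p and −log10 q values, with a row for each annotated feature nearby. Rows of the same peak were collapsed.

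Peaks on the 10 chromosomes were joined across libraries by 1 bp overlap (python 3.11.15, pandas 2.3.3, numpy 2.4.6, scipy 1.17.1, matplotlib 3.10.9). The lead region of a gene was the one with the highest median rank percentile over the 12 libraries, without use of condition. Numbers of peaks and rank percentiles were compared by 2-sided exact permutation tests of 3 against 3 libraries (smallest p 0.1), with Benjamini-Hochberg adjustment over 12 tests each. Regions described were those found in each of the 3 libraries of at least 1 condition, plus the lead regions, and pathway genes were named where bound, apart from some results of the pathway list, its counts included, that are not reported here. The members, regions and gene lists were chosen with earlier results of these data known. Joining was tested on simulated peaks, of which 2000 of 2000 regions were recovered. The simulated regions lay far from one another and from the noise peaks, so false joining of neighbouring peaks was not tested. Alternatives were a q threshold, an equal number of peaks, a 5 kb window, 50% overlap, 2 of 3 libraries, a replicate block and leaving out each replicate number. A planned search for response element motifs was not run, since no genome sequence was used here.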

Additional observations from a re-analysis of the deposited data

How the results depend on the processing

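The spread is that of technical replicates, depth is unknown, and the smallest adjusted p was 0.3, so a p above 0.05 does not show that conditions were alike, and no p was able to cross 0.05 under any alternative. Ranked by −log10 p or with 17414 peaks per library, the 4 differences in rank percentile at the thibz lead region kept their direction. Those with TRα-/- control had no way to turn, as its libraries had no peak there and stayed at 0. TRα-/- T3 minus TRα-/- control was 96.8 by −log10 p and 94.1 with 17414 peaks. TRα-/- control minus wild-type control was -98.7 and -95.6 in the same order. Without TRα-/- control, wild-type T3 minus wild-type control was 0.162 and 0.948. TRα-/- T3 minus wild-type T3 was -2.07 and -2.44.

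Some differences in the number of peaks turned with the stringency of the calls, all of them below 0 when every deposited peak was used. At a −log10 q of 5 or more, wild-type T3 minus wild-type control became 0.333 at thrb, 2.67 at thibz and 1.67 at klf9, and TRα-/- T3 minus TRα-/- control became 1.67 at thibz and 0.667 at klf9. With 17414 strongest peaks per library, these became 2.67 at thibz and 1 at klf9 in wild type, and 2.67 at thibz and 1.67 at klf9 in TRα-/-. With a 5 kb window, TRα-/- T3 minus TRα-/- control became 0.667 at thibz and 0.333 at klf9. Of the rank percentiles, the klf9 difference of TRα-/- T3 from wild-type T3 became 0.30, in place of -1.22, with 17414 peaks. The cause was not tested.

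Regions called in all 3 libraries moved from the numbers in the report as follows. With −log10 q of at least 5 there were 1 in TRα-/- T3, 0 in TRα-/- control, 6 in wild-type T3 and 5 in wild-type control. With a 5 kb window there were 1, 1, 3 and 3 in the same order. With 50% overlap there were 2 in TRα-/- control and 5 in wild-type control, and with 17414 peaks 2 in TRα-/- control. With 2 of 3 libraries sufficient there were 9, 11, 16 and 14.

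Leaving out each replicate number in turn, which drops a library from both conditions, gave ranges that crossed 0 for 10 differences. For T3 minus control in TRα-/- these were -2 to 3 peaks at thibz, -1.5 to 0.5 peaks at klf9, -44.7 to 15.8 percentile points at thrb and -23.9 to 62.8 at klf9. For T3 minus control in wild type they were -3.5 to 1 peaks at thrb, -2 to 0.5 peaks at klf9, -0.0495 to 0.353 percentile points at thibz and -47.9 to 0.83 at klf9. For TRα-/- minus wild type they were -2 to 2.5 peaks at thrb in control and -3.43 to 1.60 percentile points at klf9 with T3. Regions called in all remaining libraries ranged from 3 to 8 in TRα-/- T3, 4 to 10 in TRα-/- control, 10 to 13 in wild-type T3 and 9 to 12 in wild-type control.

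Same-numbered libraries deviated together at most weakly (correlations of -0.02 to 0.13 over 3944 regions). The numbers were not taken as pairs. The same-numbered library correlated best in 3 of 3 cases for TRα-/- control against wild-type control. This held in 2 of 3 for each T3 comparison, and in 1 of 3 for TRα-/- T3 against wild-type T3. Replicate 1 also had the lowest inferred background of each condition. Whether the replicate number bears on the results was not tested further. A replicate block cannot change the 24 differences, such as 95.7 percentile points at thibz for TRα-/- T3 minus TRα-/- control. Its exact sign-flip p ranged from 0.25, the smallest possible with 3 pairs, to 1, with 6 at 0.25.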

Other observations

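Genes beside the 3 loci also carried peaks. At thrb, nr1d2, which encodes the nuclear receptor Rev-erbβ, overlapped 2 regions, of which 0 were called in all 3 libraries of any condition, and rpl15, a ribosomal protein gene, overlapped 1. At thibz, the lysosomal nuclease gene dnase2 overlapped 2 regions and the erythropoietin receptor gene epor 0. The region 47.9 kb upstream of thibz nevertheless lies just beyond the annotated start of epor. LOC100486093 was the one neighbour overlapping regions called in all 3 libraries of a condition, with 2 of 2. At klf9, smc5, which encodes a chromosome maintenance protein, overlapped 4 regions and LOC108644703 overlapped 3, none of them called in all 3 libraries of a condition.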
